A study of Mus musculus with 6 samples.

Results

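Among stromal cells sorted from colon tumors, fibroblasts that carried transcripts of Cxcl13, Grem1, Tnfsf13b, Edil3, Cntn1 and Hapln1 filled 145 of 928 kept wells, out of 2304 wells in all. A well was counted as a member if at least 3 of these 6 genes (set B) were detected and if set B had more detected genes than each of 3 other marker sets of 6 genes. These were set A (Sfrp4, Ptx3, Gdf10, Pcolce2, Pi16 and Inmt), set C (Mmp10, Nrg1, Inhba, Wnt5a, Bmp7 and Il1rl1) and set D, genes of mural cells (Rgs5, Notch3, Rgs4, Cspg4, Mcam and Esam). Wells were kept with 100 to 6000 genes, under 10% mitochondrial transcripts and at most 1 transcript each of Ptprc and Epcam, and wells with 3 or more counts of Myoc and Angptl7 were no members. The members were therefore defined by measured values, and the levels of the set B genes in them are a description.

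Colon tumors were induced in mice with the carcinogen azoxymethane (AOM) and dextran sulfate sodium (DSS), which causes colitis, while the labels list no further treatment. All mice carried the Zeb1 fl/fl alleles. In the 3 Zeb1Fib-deleted mice the Col6a1Cre transgene was positive, so that Zeb1 was to be deleted wherever the Col6a1 promoter had been active, and in the 3 Zeb1Fib-Ctrl mice it was negative. Age-matched littermates of both sexes had been used, but the age and sex of a given mouse are not given in the sources used here. Viable cells negative for EPCAM, CD45 and CD31 were sorted into 1 plate of 384 wells per mouse and measured by SORT-seq, which counts molecules at the 3′ end of each mRNA, so that levels of different genes can be compared without their length. Plate and mouse are the same unit, and the plate of Zeb1Fib-deleted mouse 3 was sequenced on another flow cell than the others. Plates held 1575726 to 3699058 transcripts without spike-in RNA.

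Fibroblasts build the connective tissue under the colon epithelium and differ by their place along the crypt. Those near the crypt base secrete antagonists of bone morphogenetic proteins (BMP), among them GREM1, and thereby keep BMP signals away from the stem cells. Other stromal cells organize lymphoid tissue: CXCL13 attracts B cells through the receptor CXCR5, and TNFSF13B, also known as BAFF, is a survival factor of B cells. HAPLN1 links hyaluronan to proteoglycans, EDIL3 is a secreted ligand of integrins, and CNTN1 is an adhesion molecule of the immunoglobulin family best known from neurons.

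The population is named here for Cxcl13 and Grem1, and the 250 bases before their starts (RefSeq, GRCm38.p6) are shown to locate both genes. Capitals mark a match to TATAAA on either strand.
Cxcl13, chr5:95956689-95956938, plus strand: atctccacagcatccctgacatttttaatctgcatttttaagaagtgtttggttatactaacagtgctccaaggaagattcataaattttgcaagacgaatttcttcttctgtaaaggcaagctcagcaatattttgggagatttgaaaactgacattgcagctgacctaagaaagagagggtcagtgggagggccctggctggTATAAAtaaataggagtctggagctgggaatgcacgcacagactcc
Grem1, chr2:113758649-113758898, minus strand: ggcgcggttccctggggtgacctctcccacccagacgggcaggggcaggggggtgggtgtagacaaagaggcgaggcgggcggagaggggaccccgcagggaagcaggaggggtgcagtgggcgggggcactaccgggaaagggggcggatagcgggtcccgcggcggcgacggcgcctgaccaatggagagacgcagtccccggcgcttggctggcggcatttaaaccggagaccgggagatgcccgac
The match to TATAAA began at position -46 before the start of Cxcl13, and TATAAA was found in 12.4% of 32851 promoter windows of this length. CACCTG, the E-box to which ZEB1 is known to bind, was not found on either strand in the windows of Cxcl13, Grem1, Tnfsf13b, Hapln1 and Cntn1, and 17.2% of all windows held it. The κB motif was not found in these windows either, against 7.25% of all windows. Edil3 and Hapln1 are neighbors on the plus strand of chromosome 13, with 216572 bases between them in the GENCODE annotation.

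The members carried transcripts of general markers of fibroblasts. All 10 fibroblast markers examined were detected in at least 93.8% of member wells, from Lum in 93.8% and Pdgfra in 95.2% to Col1a1, Col1a2, Col3a1, Dcn and Vim in 100% of wells. Their summed level ranged over mice from 31602 to 60167 CPM (counts of a gene per 1e+06 counts of all genes, in the wells of a set summed per mouse or in a single well). In set A it was 55661 to 85903 CPM and above the members in every mouse, and in set C it was 32078 to 58218 CPM. In the 4 mice with at least 5 wells of each set, 5 of the 10 were lower and 2 higher than in set A in every mouse. Over all genes measured, 9.80% were lower and 17.2% higher. Compared with set C, 4 were higher and 1 lower, against 10.7% and 16.0% over all genes. A member well had a median of 13675 transcripts and 3866 genes, against 11777 transcripts in 109 set A wells, 15141 in 111 set C wells and 11052 in 92 set D wells. The working name "without subtype markers" did not hold in full, since 117 of 145 member wells had at least 1 gene of set C and 65 had at least 2, while at least 1 gene of set A was detected in 43 wells.

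Tnfsf13b was detected in most member wells and Cxcl13 in the fewest. Tnfsf13b was found in 97.9%, Edil3 in 86.2%, Grem1 in 81.4%, Cntn1 in 72.4%, Hapln1 in 57.9% and Cxcl13 in 56.6% of the 145 wells. In the other fibroblast sets, Tnfsf13b was found in 41.3% of set A and 45.9% of set C wells, Grem1 in 17.4% and 27.9%, and Cxcl13 in 17.4% and 21.6%. In set D wells, Tnfsf13b was found in 8.70%, Grem1 in 4.35%, Cxcl13 in 7.61% and neither Hapln1 nor Cntn1 in any well. In 220 kept wells with at least 3 neutrophil markers and a median of 1016 transcripts, these shares were 5.91%, 2.73% and 1.82% for Tnfsf13b, Grem1 and Cxcl13. Of the members, 27 wells had 3 set B genes, 46 had 4, 41 had 5 and 31 had all 6. Cxcl13 and Grem1 were found together in 68 wells, Cxcl13 without Grem1 in 14, Grem1 without Cxcl13 in 50 and neither in 13.

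Cxcl13 differed more between wells than the other 5 genes. The 10 wells with the most Cxcl13 held 56.2% of all Cxcl13 transcripts of the members, compared with 17.8% for Tnfsf13b and 28.5% for Grem1. Where it was detected, Cxcl13 ranged from 44.1 to 13062 CPM per well with a median of 722 CPM, and Grem1 from 39.5 to 1879 CPM with a median of 307 CPM. Wells with and without Cxcl13 occurred in every mouse. Cxcl13 was detected in 44 of 55 member wells of Zeb1Fib-Ctrl mouse 1 but in 27 of 68 of Zeb1Fib-deleted mouse 1, the mice with the most members. In the plot of single wells, values of Cxcl13 reach from 0 to the top of the axis, whereas those of Tnfsf13b stay together.

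**Figure D1:**
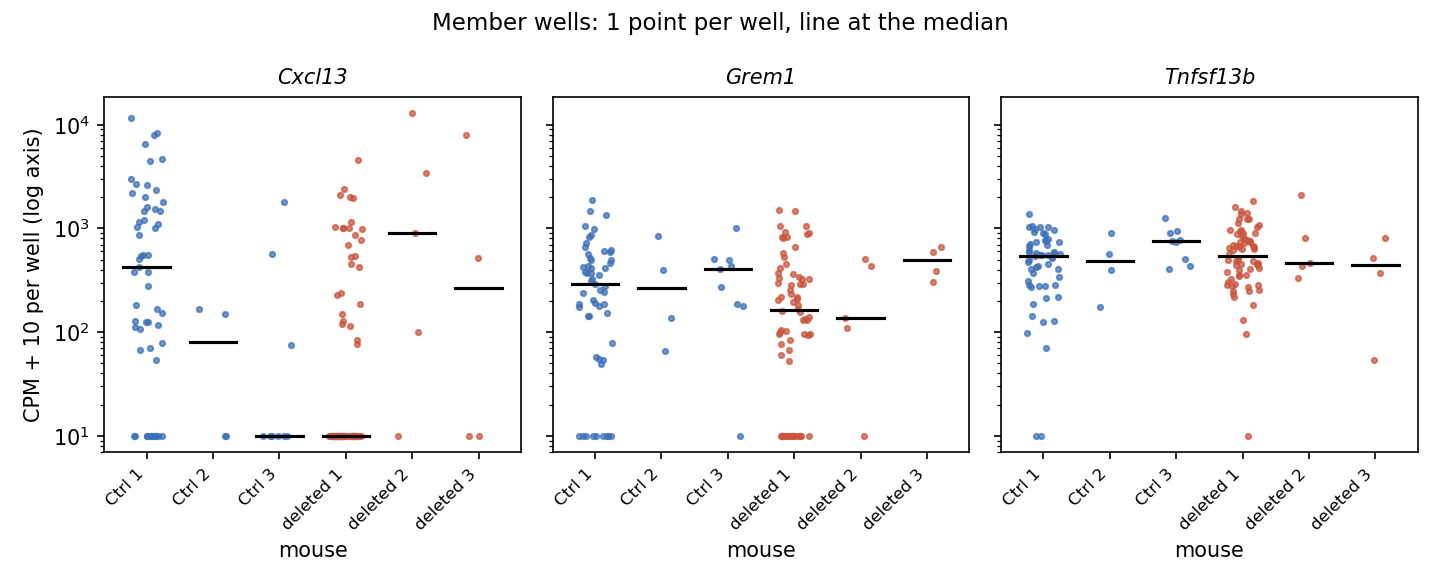
Level of Cxcl13, Grem1 and Tnfsf13b in each of the 145 member wells, as CPM + 10 on a log axis, by mouse (blue, Zeb1Fib-Ctrl mice 1 to 3, red, Zeb1Fib-deleted mice 1 to 3). Each point is 1 well and the black line is the median, which for Cxcl13 is 0 CPM in Zeb1Fib-Ctrl mouse 3 and Zeb1Fib-deleted mouse 1, while Cxcl13 reaches 13062 CPM in a well of Zeb1Fib-deleted mouse 2.

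At the limit of the rule, the 27 members with 3 set B genes had a median summed set B level of 1245 CPM per well. Just outside it, 5 wells with 2 set B genes that led the other sets had 440 CPM at a median of 5107 transcripts. A further 19 wells with at least 3 set B genes tied with another set and had 904 CPM, and 23 had more genes of another set and 590 CPM.

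Summed over the member wells of a mouse, Tnfsf13b, Edil3 and Grem1 were similar among mice, and Cxcl13 was not. Cxcl13 was 1196, 65.3 and 262 CPM in Zeb1Fib-Ctrl mice 1 to 3 and 240, 4616 and 1678 CPM in Zeb1Fib-deleted mice 1 to 3. The groups overlapped, with the lowest value in a control and the highest in a deleted mouse, and Zeb1Fib-Ctrl mouse 2 contributed only 3 Cxcl13 transcripts. In Zeb1Fib-deleted mice 2 and 3 the sums rested largely on 1 well each, at 13062 and 7928 CPM. The medians per well in these mice were 892 and 254 CPM. Tnfsf13b was 527, 413 and 730 CPM in controls and 600, 782 and 360 CPM in deleted mice, again overlapping. Grem1 was 364, 283 and 368 CPM in controls and 291, 205 and 524 CPM in deleted mice. The deleted mice thus lay on both sides of the controls. Edil3 ranged from 195 to 447 CPM over all 6 mice and Hapln1 from 44.9 to 242 CPM. Cntn1 was 143, 283 and 184 CPM in controls and 140, 55.8 and 44.9 CPM in deleted mice, where the last 2 values rest on 3 transcripts each.

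The share of this population did not differ detectably between genotypes. Of all kept wells, members made up 26.8%, 3.64% and 8.26% in Zeb1Fib-Ctrl mice 1 to 3 (55 of 205, 4 of 110 and 9 of 109 wells) and 26.2%, 2.53% and 8.70% in Zeb1Fib-deleted mice 1 to 3 (68 of 260, 5 of 198 and 4 of 46 wells). A single mouse of each genotype thus held most of the members, together 84.8% of them, and the ranges of the genotypes overlapped almost fully. The mean was 12.5% ± 12.3 (SD, n = 3) in Zeb1Fib-deleted and 12.9% ± 12.3 (SD, n = 3) in Zeb1Fib-Ctrl mice, a difference of -0.449 percentage points (exact permutation test over mice, two-sided, p = 0.80, where 0.10 is the smallest p that 3 against 3 mice allow). Among wells of sets A, B and C only, members made up 47.4%, 26.7% and 19.1% in controls and 56.7%, 9.09% and 33.3% in deleted mice. That difference was 1.95 percentage points (exact permutation test, p = 1.0). The difference of the share of kept wells turned positive without Zeb1Fib-Ctrl mouse 1 (6.51 percentage points), Zeb1Fib-deleted mouse 2 (4.52) or Zeb1Fib-deleted mouse 3 (1.43), and was -7.30 without Zeb1Fib-deleted mouse 1, -5.08 without Zeb1Fib-Ctrl mouse 2 and -2.77 without Zeb1Fib-Ctrl mouse 3. The difference among sets A, B and C turned negative without Zeb1Fib-Ctrl mouse 2 (-0.251), Zeb1Fib-Ctrl mouse 3 (-4.01) or Zeb1Fib-deleted mouse 1 (-9.86), and was 10.1 without Zeb1Fib-Ctrl mouse 1 and 13.9 without Zeb1Fib-deleted mouse 2. Fewer of these cells in a tumor and fewer that survived dissociation and sorting cannot be told apart. Well numbers recur on all plates, and 15 of the 130 well numbers with a member had members on more than 1 plate.

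**Figure D2:**
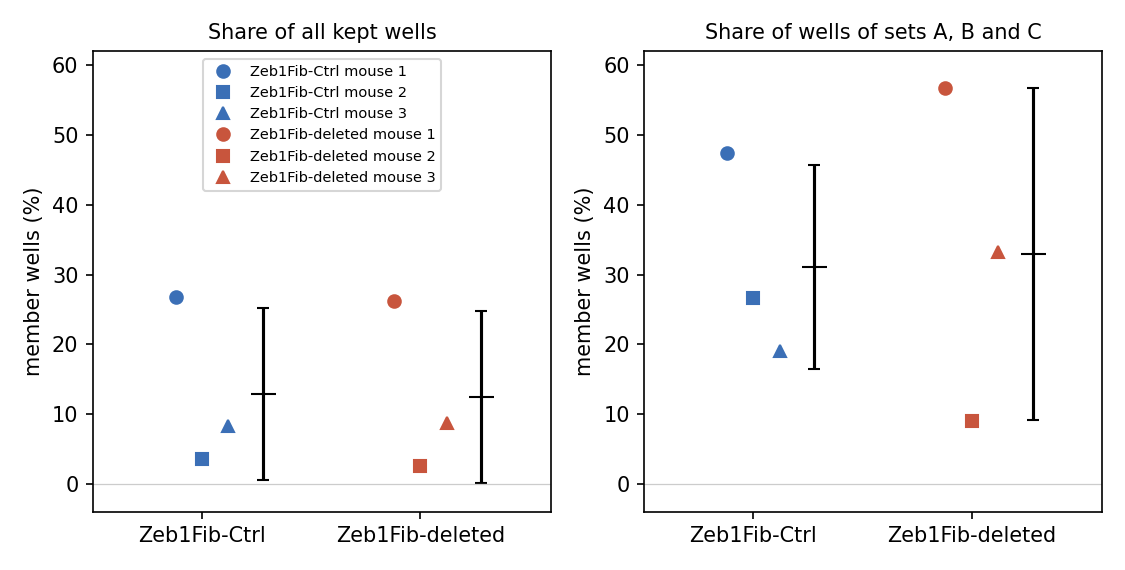
Member wells as a percentage of all kept wells (left) and of the wells of sets A, B and C (right). Points are single mice, and the black bar and whiskers are the mean and SD of 3 mice per genotype. Mouse 1 of each genotype has the highest share in both panels, and the means of the genotypes lie within 2 percentage points in each panel, at 12.9% and 12.5% on the left.

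Zeb1 itself was low in the members of both genotypes. Its level was 66.7, 0 and 28.3 CPM in Zeb1Fib-Ctrl mice 1 to 3 and 62.1, 130 and 59.9 CPM in Zeb1Fib-deleted mice 1 to 3, from 53, 0 and 4 transcripts and 60, 7 and 4 transcripts. The groups overlapped, and the count of 0 in the 4 wells of Zeb1Fib-Ctrl mouse 2 allows a level of up to 65.3 CPM. Zeb1 did not pass the filter on low counts and was not tested between genotypes. Counts per gene at the 3′ end do not show whether an internal part of the gene is missing, so that these values do not check the deletion.

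No gene passed the test between genotypes within the members by edgeR with the filter on low counts. Counts summed per mouse were tested with edgeR's quasi-likelihood test, and 0 of 1766 genes tested (0%) passed an adjusted p of 0.05, while 42 had an unadjusted p under 0.05. DESeq2 called 1 of the 1766 genes. All 6 set B genes were tested. Cxcl13 differed by 1.92 ± 0.90 (log2 fold change ± SE, Zeb1Fib-deleted over Zeb1Fib-Ctrl, adjusted p = 1.0), by 0.66 without Zeb1Fib-deleted mouse 2 and by 3.50 without Zeb1Fib-Ctrl mouse 1. Hapln1 differed by 1.0 ± 0.42 and Cntn1 by -0.78 ± 0.40, both with an adjusted p of 1.0, and Cntn1 by -1.89 without Zeb1Fib-deleted mouse 1. For Edil3, Tnfsf13b and Grem1 the differences were 0.20 ± 0.34, 0.03 ± 0.33 and -0.03 ± 0.36, and each of these 3 changed sign when certain mice were left out. The mice of the genotypes did not overlap for Cntn1, as for 8.66% of the genes tested. Without the filter on low counts, 3 genes passed by edgeR: Col8a1 (adjusted p = 2.41e-06), Cxcl13 (adjusted p = 0.00876) and Prss23 (adjusted p = 0.05). The Cxcl13 sums of Zeb1Fib-deleted mice 2 and 3 rested largely on 1 well each. Prss23 was chosen for naming after its values were seen.

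Col8a1, which encodes a short-chain collagen, had the smallest p and passed by DESeq2 only among the tests with the filter on low counts. It was 69.2, 43.5 and 49.6 CPM in the members of Zeb1Fib-Ctrl mice 1 to 3 and 260, 223 and 899 CPM in those of Zeb1Fib-deleted mice 1 to 3. The genotypes did not overlap, as for 8.66% of the 1766 genes tested. These levels came from 55, 2 and 7 transcripts in controls and 251, 12 and 60 in deleted mice. The level in Zeb1Fib-Ctrl mouse 2 is below 65.3 CPM, which 3 transcripts would give there. The difference was 2.90 ± 0.56 on the log2 scale by edgeR (adjusted p = 0.37), while DESeq2 gave an adjusted p of 0.000782. Over the alternatives of the edgeR test with the low-count filter the adjusted p of Col8a1 ranged from 0.139 to 1.0, and without Zeb1Fib-deleted mouse 3, the plate of the other flow cell, the difference was 2.01. Set A wells held 377 to 1891 CPM of Col8a1. The summed level of the 6 set A genes in members moved in the same direction, with 79.3, 0 and 0 CPM in controls and 165, 112 and 240 CPM in deleted mice, and its part in the difference of Col8a1 was not tested. The next genes by p did not pass by either tool. Serpina3m, a serine protease inhibitor of the acute phase, was 152, 196 and 198 CPM in controls and 71.4, 93.1 and 59.9 CPM in deleted mice (log2 fold change -1.27 ± 0.33, adjusted p = 1.0). Gfpt2, of the hexosamine pathway, differed by 1.69 ± 0.50, Plp2 by 1.22 ± 0.35 and Tef by 1.20 ± 0.39, each with an adjusted p of 1.0, and Gfpt2 by 3.20 without Zeb1Fib-Ctrl mouse 1 (adjusted p = 0.0797).

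Genes outside the rule that set the members apart from the other fibroblasts were then described in the 4 mice with at least 5 wells of each set compared, Zeb1Fib-Ctrl mice 1 and 3 and Zeb1Fib-deleted mice 1 and 2. Differences are log2 of CPM + 10, members minus set A or set C. They have no test, since the rule and the clusters behind its markers used the same wells. Of 6921 genes detected in at least 25% of the wells of a set, 17.2% were higher and 9.80% lower than in set A in all 4 mice, and 10.7% were higher and 16.0% lower than in set C. Both sets were exceeded by 217 genes, and 133 genes were lower than in both.

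Sfrp2, a secreted modulator of Wnt signals, led the genes that were higher. It was 1237 and 978 CPM in the members of Zeb1Fib-Ctrl mice 1 and 3 and 1052 and 1303 CPM in those of Zeb1Fib-deleted mice 1 and 2, but 35.1, 13.7, 218 and 268 CPM in set A and 78.2, 50.9, 127 and 105 CPM in set C. Its mean difference was 3.66 ± 1.67 (SD, n = 4) from set A and 3.58 ± 0.46 (SD, n = 4) from set C. Tcf21, a transcription factor of the mesenchyme, followed the same order, with 605, 418, 568 and 707 CPM in members and at most 270 CPM in set A and 415 CPM in set C of these mice. Col15a1, a collagen at basement membranes, was 641, 1162, 800 and 428 CPM in members, but its difference from set C was only 0.03 in Zeb1Fib-deleted mouse 2. Among the others of the 12 leading genes were Alpl, the tissue-nonspecific alkaline phosphatase, Slco2b1, an organic anion transporter, Adam23, Cyp4v3, Amacr, Rhobtb3, Pgm5 and Bmp6. Their mean differences from the nearer set ranged down to 1.45 for Bmp6. Several rested on few transcripts in the members of a mouse. In Zeb1Fib-deleted mouse 2, Alpl, Adam23 and Rhobtb3 had 4 each and Amacr had 3, and Pgm5 had 3 in Zeb1Fib-Ctrl mouse 3.

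Among the leading lower genes were Col6a3, a chain of collagen VI, Cd44, a receptor of hyaluronan, Plat, the tissue plasminogen activator, and the transcription factor Twist1. Col6a3 was 268, 220, 319 and 74.4 CPM in members, against 668 to 1390 CPM in set A and 871 to 1282 CPM in set C of the same mice. Its mean difference was -2.01 ± 0.83 from set A and -2.40 ± 0.66 from set C (SD, n = 4). Cd44 was detected in 63.4% of member wells, 80.7% of set A wells and 93.7% of set C wells. Plat differed by -2.99 and -1.79, and Twist1 by -2.01 and -1.61, from sets A and C. The remaining 8 were Hp, Fndc1, Olfr1033, Flrt3, Unc45a, Tmem2, Eif3b and Ctps.

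**Figure D3:**
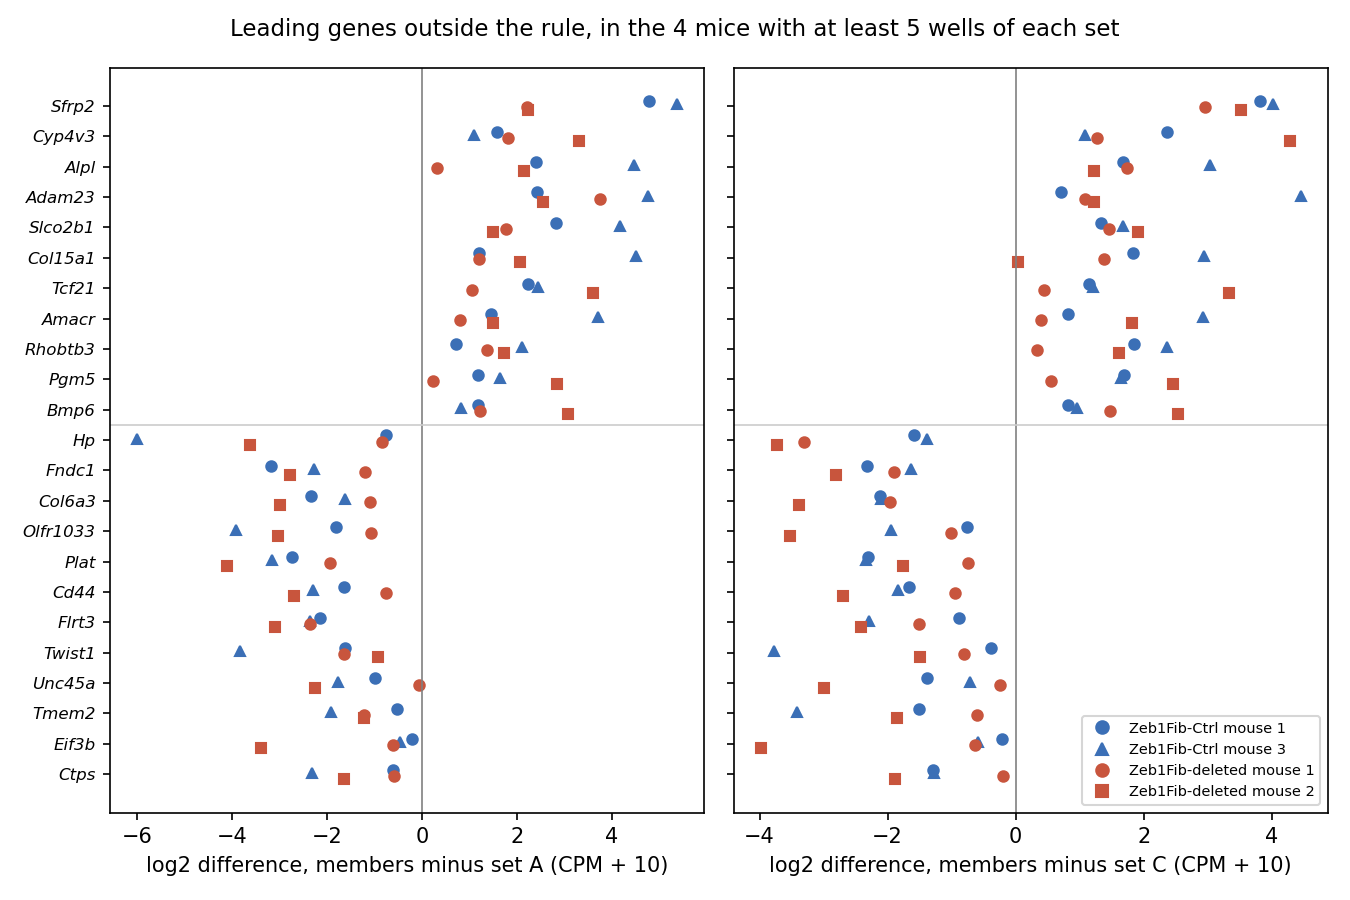
Log2 difference of CPM + 10 of 11 of the leading higher and the 12 leading lower genes, members minus set A (left) and minus set C (right). Each point is 1 of 4 mice (blue, Zeb1Fib-Ctrl, red, Zeb1Fib-deleted). Genes were chosen so that all points lie on the same side of 0, and Sfrp2 is farthest to the right, with means of 3.66 and 3.58.

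Wells with 10% to under 30% mitochondrial transcripts had not been used by the rule and gave a test of such differences. By the same marker rule they held 35 members, of which 14 were from Zeb1Fib-Ctrl mouse 1, 3 from Zeb1Fib-Ctrl mouse 3 and 11 from Zeb1Fib-deleted mouse 1, the mice with at least 3 wells of members and of set C (18, 30 and 6 wells). With mouse as a block, 136 of 3177 genes outside the rule differed from set C by edgeR, 76 higher (2.39%) and 60 lower (1.89%). Without Zeb1Fib-Ctrl mouse 1 only 1 of 1967 genes passed, Mfap4, which encodes a microfibril protein and was chosen for naming after its values were seen. Of 29 listed or named genes that passed, 27 did not pass without that mouse and 2, Tmem2 and Il6, could not be tested. Apart from it, 13 of the 29 passed under all alternatives run, and the calls of Col6a3, Cd44, Fbln2, Ncam1, Itgav, Mylk, Pdgfrb, C3, Cfb, Cxcl12, Cxcl14, Il6 and Saa3 were among the 16 lost under at least 1. Members of Zeb1Fib-Ctrl mouse 1 also held transcripts of all 9 macrophage markers, with a summed level of 351 CPM against 10.5 CPM in its set C wells, whereas in Zeb1Fib-Ctrl mouse 3 the 8 neutrophil markers summed to 57.2 CPM in members and 1044 CPM in set C. The part of these cell types in the result was not tested. Against set A only Zeb1Fib-Ctrl mouse 1 and Zeb1Fib-deleted mouse 1 had enough wells, so that no test was made.

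Of the 12 leading higher genes 7 could be tested against set C, all 7 had a positive difference, and Sfrp2 and Col15a1 passed. Sfrp2 was 1114, 772 and 741 CPM in members and 153, 34.3 and 80.9 CPM in set C of Zeb1Fib-Ctrl mice 1 and 3 and Zeb1Fib-deleted mouse 1. All member values exceeded all set C values, and the difference was 3.43 ± 0.38 (log2 fold change ± SE, adjusted p = 0.000115). Against set A, where 2 mice had enough wells, Sfrp2 differed by 2.66 and 1.39, and 9 of the 12 leading higher genes kept their direction in both mice. Col15a1 differed by 2.34 ± 0.38 (adjusted p = 0.00137). Of the 12 leading lower genes 7 were tested, all 7 were lower, and Col6a3 (-1.95 ± 0.34), Cd44 (-1.73 ± 0.42) and Tmem2 passed. Tmem2, a cell surface hyaluronidase, had no count in the members and was 89.5, 113 and 46.2 CPM in set C of the same 3 mice. Pooled over these mice, it was at least 10.8-fold lower, taking 3 counts over the members as the floor. The mice gave members and set C wells in unequal numbers, and within a single mouse the bound is smaller. Serpina3m, named above between genotypes, was higher than in set C by 4.52 ± 0.81 (adjusted p = 0.00287). Against set A only 5 of the 12 leading lower genes kept their direction in both mice. Twist1 (1.77 and 1.94) and Hp (1.77 and 3.71) had the opposite sign in both, and Cd44 (0.68) and Fndc1 (4.81) in Zeb1Fib-deleted mouse 1. Tcf21 did not pass against set C, with 0.33 ± 0.34 (adjusted p = 0.778). Of the 10 fibroblast markers, all tested against set C by edgeR, Lum was higher (1.63 ± 0.36, adjusted p = 0.0105) and Pdgfra lower (-1.62 ± 0.34, adjusted p = 0.0082). Over all genes tested, 2.39% were higher and 1.89% lower. Neither call held under all alternatives.

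The surface markers Cd34 and Cd55 and the complement genes C3, C4b and Cfb were higher in the members than in set C. Cd34, a sialomucin of progenitor-like fibroblasts, was 660, 286 and 392 CPM in members and 15.8, 3.43 and 116 CPM in set C of the 3 mice (3.86 ± 0.58, adjusted p = 0.00069). Cd55, which shields cells from complement, differed by 4.10 ± 0.55 (adjusted p = 0.000587). Of 8 tested genes of the list of progenitor and steady-state markers, 3 (Cd34, Cd55 and Col15a1) were higher and Pdgfrb was lower (-1.93 ± 0.38), with a median of 0.96 against -0.02 over all genes tested. Of 8 tested complement genes 4 were higher, namely C3, C4b, Cfb and Cd55, which is on both lists, and none lower, with a median of 1.10 and against 2.39% higher over all genes tested. C3, the central component of complement, was 2198, 2518 and 1524 CPM in members and 838, 440 and 925 CPM in set C (1.55 ± 0.33, adjusted p = 0.0098). In the kept wells 7 of 8 measured complement genes were higher than in set C in all 4 mice (10.7% over all genes), but only C4b was higher than in set A, and the mean difference of C3 from set A was -1.38. Cd34 and Cd55 differed from set A by means of -0.99 and -0.45. Of 10 measured genes of the progenitor and steady-state list, 5 were lower and 2 higher than in set A in all 4 mice, with a median of -0.46. Over all genes, the shares were 9.80% lower and 17.2% higher. Compared with set C, 7 of these 10 were higher and 1 lower, against 10.7% and 16.0% over all genes.

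In the wells with more mitochondrial transcripts some matrix genes differed between members and set C, though none passed without Zeb1Fib-Ctrl mouse 1. Of 21 tested genes of matrix and adhesion, Col14a1 (3.25 ± 0.48), Fbln1 (2.59 ± 0.37), Col15a1, Fbln2 (2.02 ± 0.49) and Ncam1 (1.29 ± 0.33) were higher. Tnc (-2.71 ± 0.48), Col6a3 and Itgav (-1.56 ± 0.38), an integrin subunit, were lower, and the median of the list was -0.20. Over all genes tested, 2.39% were higher and 1.89% lower. Fbln1 and Fbln2 are fibulins of elastic fibers and basement membranes, Col14a1 is a collagen that associates with fibrils, and Tnc is an adhesion-modulating protein of remodeled tissue. Tnc was 42.4, 0 and 42.7 CPM in members and 258, 453 and 173 CPM in set C, without overlap. In the kept wells 6 of 21 measured genes were higher than in set A in all 4 mice, such as Col12a1 and Postn (means 2.47 and 2.37), and 4 were lower, such as Col6a3 (-2.01), with a list median of -0.15. Over all genes, 17.2% were higher and 9.80% lower than in set A. Of 10 tested genes of hyaluronan and proteoglycans Prelp (1.96 ± 0.36) and Ogn (2.18 ± 0.46), small leucine-rich proteoglycans, were higher and Cd44 was lower. The shares over all genes tested were again 2.39% and 1.89%. The hyaluronan synthases Has1 (1.05 ± 0.54) and Has2 (1.30 ± 1.06) did not pass.

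**Figure D4:**
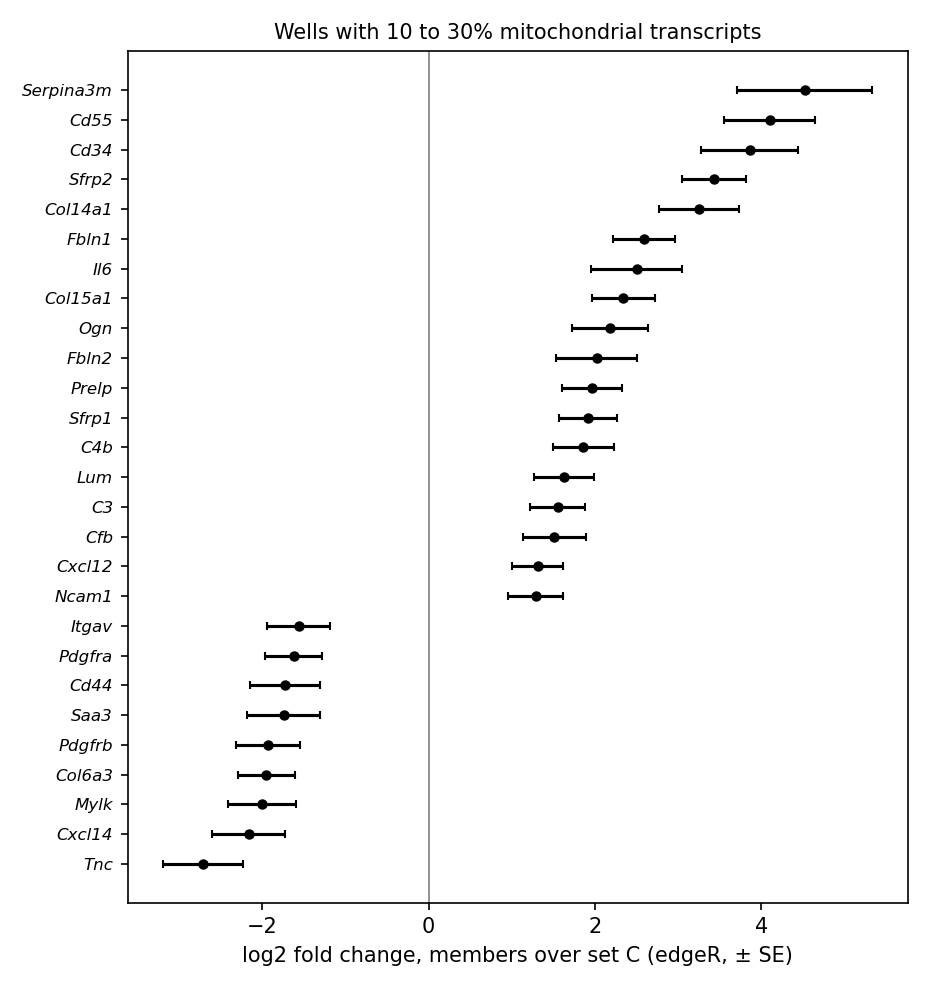
Log2 fold change of members over set C (± SE, edgeR with mouse as a block, 3 mice) in wells with 10% to under 30% mitochondrial transcripts. Plotted are the named and listed genes that passed an adjusted p of 0.05 and had counts in both sets, 18 higher and 9 lower, with Tnc lowest at -2.71 and Serpina3m highest at 4.52.

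Of the list of the lymphoid niche, Cxcl12 passed, but not under all alternatives. Cxcl12, which retains leukocytes in tissue through CXCR4, was 1369, 629 and 1723 CPM in members and 474, 227 and 913 CPM in set C (1.31 ± 0.31, adjusted p = 0.0183, and 0.0133 to 0.552 over the alternatives). It was the only gene called of 7 tested (2.39% higher over all genes tested), while Vcam1 (0.74 ± 0.36) and Icam1 (0.81 ± 0.45), adhesion molecules for leukocytes, did not pass. In the kept wells Vcam1, Cxcl12, Pdpn and Tnfrsf1a, of 8 measured genes, were higher than in set C in all 4 mice (10.7% over all genes). Ccl19, which attracts T cells, was found in 2.76% of member wells, and Il33, an alarmin, in 9.66% of member wells against 78.0% of set A wells. Markers of follicular dendritic cells, which also make CXCL13, were nearly absent. In members 3 of 5 were detected, Coch and Madcam1 had no count, and the summed level was 0 to 21.3 CPM per mouse. Of 9 tested chemokine genes, Cxcl14 was lower than in set C (-2.16 ± 0.44, adjusted p = 0.0072) and none was higher, against 1.89% lower and 2.39% higher over all genes tested. Ccl2 gave 2.14 ± 0.61 and an adjusted p of 0.0554. In the kept wells Cxcl5, a chemokine for neutrophils, was higher than in set A in all 4 mice, by a mean of 3.09 ± 1.77 (SD). Of the 9 measured chemokine genes 4 were lower than in set A in all 4 mice, among them Cxcl1, Ccl2 and Ccl7. Over all genes, 17.2% were higher and 9.80% lower.

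Of the BMP pathway, 0 of 13 tested genes outside the rule passed against set C, where 2.39% of all genes tested were higher and 1.89% lower. With so few genes, a count of 0 does not set this list apart from all genes. The ligand Bmp4 was detected in 99.3% of member wells, next to the antagonist Grem1 in 81.4%. Bmp4 was 1266 to 2232 CPM in the members of the 6 mice, in each mouse above Grem1 at 205 to 524 CPM. Other antagonists were sparse, with Chrd in 34.5%, Nog in 13.1% and Fst in 4.83% of member wells. Compared with set A in the kept wells, Bmp4, Bmp5, Bmp6, Acvr1 and Smad6 were higher in all 4 mice, with Bmp4 at 2.69 ± 1.13 (SD), while 6 of 17 measured genes were lower, among them Fst (-2.70), and the list median was 0.04. Over all genes, 17.2% were higher and 9.80% lower than in set A. Compared with set C, Bmp6, Chrd and Bmpr1a were higher in all 4 mice and 6 genes lower, among them Bmp2, Bmp4 and Bmp5, with a list median of -0.37. The shares over all genes were 10.7% higher and 16.0% lower than in set C. Of 7 tested genes of Wnt signaling, Sfrp2 and Sfrp1 (1.92 ± 0.35, adjusted p = 0.0034) were higher than in set C (2.39% over all genes tested). Wnt4 was found in 76.6% of members and 8.26% of set A wells, and Wnt2b in 40.7% and 6.42%. These 2 genes are not compared with set C here. Of 9 measured Wnt genes, 5 were higher and 0 lower than in set A in all 4 mice, against 17.2% and 9.80% over all genes. Compared with set C, 3 were higher and 2 lower, against 10.7% and 16.0%.

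Contractile genes, which mark myofibroblasts, were intermediate in the kept wells. Of 8 measured genes 7 were lower than in set C (16.0% over all genes) and 4 higher than in set A (17.2% over all genes) in all 4 mice, with Acta2 at -2.63 ± 1.11 from set C and 1.61 ± 0.83 from set A (SD, n = 4). In the wells with more mitochondrial transcripts, Mylk (-2.0 ± 0.41) was the only one of 7 tested genes that was lower than in set C (1.89% over all genes tested), and Acta2 gave -0.48 ± 0.33 (adjusted p = 0.611). Inflammatory genes were mixed. Il6 was higher (2.50 ± 0.55, adjusted p = 0.0133) and Saa3 lower (-1.74 ± 0.44, adjusted p = 0.0282) than in set C, of 9 tested (2.39% higher and 1.89% lower over all genes tested). Over the alternatives that could be run the adjusted p ranged from 0.0102 to 0.232 for Il6 and from 0.00035 to 0.538 for Saa3. Il6 was 151, 0 and 192 CPM in members and 21.1, 0 and 46.2 CPM in set C, so that Zeb1Fib-Ctrl mouse 3 showed none in either set. Of 7 tested genes of interferon response and antigen presentation none passed against set C, at the same shares over all genes tested. In the kept wells 5 of 9 measured genes, among them B2m, H2-K1, H2-D1 and Psmb8, were higher than in set A in all 4 mice (17.2% over all genes). Of the other factors of epithelial-mesenchymal transition, Zeb2, Snai1 and Snai2 were higher and Twist1 (-2.01) lower than in set A in all 4 mice in the kept wells. Over all genes, 17.2% were higher and 9.80% lower. None of 5 tested genes, Zeb1 included, passed against set C. In the wells with more mitochondrial transcripts, Twist1 was higher than in set A in both mice with enough wells, opposite to the kept wells. Of cell cycle genes, Mki67 was found in 14.5% and Top2a in 0.69% of member wells.

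Markers of other cell types were low in the kept members. The ranges of the summed level over the 6 mice were 59.1 to 522 CPM for 8 neutrophil markers, 0 to 87.0 CPM for 9 macrophage markers, 3.11 to 300 CPM for 8 epithelial markers and 0 to 44.9 CPM for 8 endothelial markers. Markers of interstitial cells of Cajal (4 genes) reached 0 to 165 CPM, against 0 to 17.4 CPM in set A and 26.1 to 65.7 CPM in set C. For 6 markers of enteric glia the range was 0 to 60.4 CPM, with the highest level in Zeb1Fib-Ctrl mouse 1, against 0 to 4.85 CPM in set C. Pecam1, Cdh5, Cd3e, Ms4a1, Msln and Wt1 had no count. The 6 mural genes of set D, limited by the rule, summed to 15 to 47.6 CPM in members and 4138 to 7287 CPM in set D wells. The highest neutrophil level was in Zeb1Fib-Ctrl mouse 2, and neither genotype was set apart by these lists.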

How the data were processed

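Stromal cells of AOM/DSS tumors from 6 mice (1 plate of 384 wells each) were measured by SORT-seq. Reads were mapped by bwa against the transcriptome of GRCm38 at the sequencing provider of the authors. The submitters' processing notes also name Cell Ranger 2.1.1. In the deposited barcode tables the values are whole counts of molecular barcodes, and the deposited transcript counts are estimated counts that the authors corrected for molecules sharing a barcode. Neither was normalized. Spike-in RNA (7.85% to 18.6% of transcripts) was left out. Floors cover counting error only, whereas the SE of the tests also includes the variation between mice as estimated by the fit.

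Genotypes were taken from the labels. Transcript counts were summed per mouse and set, rounded, filtered by filterByExpr and scaled by TMM. Tests were the quasi-likelihood tests of edgeR 4.0.16, with p adjusted by Benjamini-Hochberg and called at 0.05. To obtain the SE, the log2 fold change was divided by the root of the F statistic. DESeq2 1.42.0 was an alternative. Tests were run on simulated counts with the same dispersion for all genes and no difference between mice apart from depth. This checked the code and not the error rates in these data. CPM of sums were compared as log2(CPM + 10). Shares were compared by exact permutation tests over mice. No doublet caller was run, since each well was meant to hold 1 cell. Promoters came from RefSeq (5 of 6 set B genes matched).

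The members, gene lists and tests were chosen with earlier results of these data known. Named are the set B genes, the 12 leading genes in each direction (detected in at least 25% of wells, the same direction in every mouse, ordered by the smaller mean difference), the 5 genes with the smallest p between genotypes, list genes and Zeb1. Of the list genes, 5 did not match the files. Counts of a list leave out genes of the rule. A few genes that the rule names are not reported here.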

Additional observations from a re-analysis of the deposited data

How the results depend on the processing

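Alternatives were the barcode counts, thresholds of 2 or 4 set B genes, only genes named mt- as mitochondrial, wells thinned to 1000 barcodes, DESeq2, no filter on low counts, no mouse block, wells of 10% to under 20% mitochondrial transcripts and leaving out each mouse. The difference in the share of members (main value -0.449 percentage points of kept wells, 1.95 of sets A, B and C) changed sign with only mt- genes (0.112 and -1.40) and, for kept wells, after thinning (0.255). Leaving out each mouse gave -7.30 to 6.51 and -9.86 to 13.9 percentage points, with exact permutation p of 0.40 or more. Between genotypes, 0 genes passed in the edgeR fits with the low-count filter, also without any mouse, 1 by DESeq2 and 3 without the filter. Against set C in the wells with more mitochondrial transcripts, 136 genes became 76 with barcode counts, 62 by DESeq2 and 81 without the mouse block, and 1 to 179 when a mouse was left out, 1 without Zeb1Fib-Ctrl mouse 1. The cause was not tested. Of 29 listed or named genes that passed against set C, none passed without Zeb1Fib-Ctrl mouse 1 (27 tested), and 16 did not pass under at least 1 other alternative. The 24 leading genes kept their direction under 4 alternatives chosen after seeing the data (barcode counts, 2 or 4 set B genes, only mt- genes). No paired analysis between genotypes was possible because replicate numbers do not pair the mice. The comparison with set A in these wells and its alternatives were not run, since only 2 mice had enough wells. With 4, 9, 5 and 4 member wells in 4 of the mice, 3 transcripts there correspond to 65.3, 21.3, 55.8 and 44.9 CPM, which limits what could be detected between genotypes.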
